A study of Mus musculus with 6 samples.

Results

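Short-chain dehydrogenases and reductases, aldo-keto reductases and aldehyde dehydrogenases are the families of enzymes that oxidize and reduce alcohols, aldehydes and ketones with nicotinamide cofactors. Their genes were taken from a table of 14774 genes by the beginning of the symbol (Dhrs, Rdh, Hsd17b, Hsdl, Sdr, Akr1, Akr7, Aldh, Cbr, Dcxr and Wwox), with Hsd17b4, Hsd17b7 and Akr1c18 left aside. This gave 54 genes on 17 chromosomes, of which 53 fell into 5 families and 1, Dhrs13os, is a noncoding gene antisense to Dhrs13. The retinoid enzymes (13 genes) are the Rdh genes, Dhrs3, Dhrs4 and the Aldh1a genes. They were grouped by symbol with enzymes that act on retinol and retinaldehyde, and the activity of each member, Aldh1a7 among them, was not examined. The other families were the 17-beta-hydroxysteroid dehydrogenases with the Hsdl genes (6 genes), the other short-chain dehydrogenases and carbonyl reductases (12 genes), the aldo-keto reductases (10 genes) and the other aldehyde dehydrogenases (12 genes).

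Total RNA was sequenced in 3 libraries of the MA-10 line, which derives from a Leydig cell tumor of the mouse and has wild type Star, and in 3 libraries of STARKO1 cells. STARKO1 is 1 clone of MA-10 cells, grown out of a single sorted cell after Cas9 had been directed to exon 2 of Star, the gene of the steroidogenic acute regulatory protein, which brings cholesterol into mitochondria. Both cell lines were untreated and grown under ordinary conditions. Since the knockout is a single clone, the loss of Star and other properties of that clone cannot be told apart. The labels do not say whether the 3 libraries of a cell line came from separate cultures, so p-values measure the spread between these samples, which may be technical.

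Leydig cells make steroids from cholesterol, and many steps of that pathway and of the breakdown of its products are carried out by short-chain dehydrogenases and aldo-keto reductases. Retinoic acid is made from retinol by 2 oxidations: a retinol dehydrogenase of the short-chain family yields retinaldehyde, and an aldehyde dehydrogenase of the Aldh1a group oxidizes it further, while reductases such as Dhrs3 carry retinaldehyde back to retinol. The remaining aldehyde dehydrogenases clear aldehydes made in lipid peroxidation and amino acid breakdown, and a few of them serve folate and proline metabolism.

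Values are given as CPM, the estimated count relative to a library size scaled by edgeR's TMM method, as mean ± SD with n = 3 for each cell line. Changes are log2 fold changes of STARKO1 over MA-10 with their standard error (SE). The adjusted p throughout comes from the quasi-likelihood test of edgeR, adjusted by Benjamini-Hochberg over the 11939 genes tested, and a gene was called when it was under 0.05. Total counts lay between 14114349 and 19530054 per library. Star itself was at 60.9, 109 and 61.4 CPM in the MA-10 libraries and at 2.06, 2.71 and 2.02 CPM in the STARKO1 libraries (adjusted p = 0.00121). MA-10 replicate 1 stood apart from the other MA-10 libraries. The log2 CPM of MA-10 replicate 1 correlated with those of replicates 2 and 3 at r = 0.897 and 0.931 across genes, against 0.979 between replicates 2 and 3 and between 0.993 and 0.994 among the STARKO1 libraries. The 7SL RNA took 1.81% of its counts, near the 1.82% to 2.37% of the STARKO1 libraries and below the 14.4% and 6.63% of the other MA-10 libraries. Ribosomal protein genes took 4.61% of its counts, 4.23% to 4.41% in STARKO1, and 8.63% and 7.79% in the other MA-10 libraries. Gm26917 took 8.71% of its counts, above both the 4.97% to 6.03% in STARKO1 and the 0.571% and 1.63% in the other MA-10 libraries. Mitochondrial genome genes did not set it apart, at 7.42% of its counts, 6.52% to 7.43% in STARKO1, and 7.49% and 8.76% in the other MA-10 libraries. The part that this composition plays in the results was not tested. The called members and the numbers of calls are therefore given with and without MA-10 replicate 1, as are some of the uncalled genes. Of the Leydig cell markers, 9 of 9 were tested, with summed levels of 1560 to 2100 CPM in MA-10 and 1410 to 1460 CPM in STARKO1, and only Star and Hsd3b1 were called, both lower. Of the endothelial markers 2 of 5 were in the table (26.4 to 41.5 CPM in MA-10 and 118 to 124 CPM in STARKO1, nearly all of it Cdh5, which was called higher), and of the fibroblast markers 1 of 6, Pdgfra (2.78 to 6.69 CPM in MA-10 and at most 0.118 CPM in STARKO1, called lower). No gene of the Sertoli, germ cell or macrophage markers was called with all libraries, with 2 of 6, 2 of 6 and 2 of 7 in the table. Rhox5 of the Sertoli list was at 314 to 503 CPM in MA-10 and 547 to 568 CPM in STARKO1. Kit of the germ cell list was at 105 to 209 and 230 to 234 CPM. Neither overlapped between the cell lines, as in 42.5% of all genes. Without MA-10 replicate 1, Rhox5, Kit and the macrophage marker Csf1r were called higher, in a fit that called 34.0% of all genes higher.

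In STARKO1 cells Aldh1a1, its paralog Aldh1a7 and Rdh16f1 were called higher, whereas Aldh1a2, Dhrs7, Akr1c14 and Sdr39u1 were called lower. Only Aldh1a1 was called under every setting run, and the identity of the Rdh16f1 reads is uncertain. Of the 54 genes, 50 had counts high enough to be tested, and 7 of these were called (14%, against 9.04% of all genes tested). They were 3 higher and 4 lower genes, where 4.30% of all genes were called higher and 4.74% lower. In 29 of the 50 genes (58.0%) the 3 libraries of one cell line lay above all 3 of the other, against 42.5% of all genes. STARKO1 was the higher line in 12 of these 29 (21.5% of all genes did so) and the lower in 17 (21.0%). The median log2 fold change of the members was -0.23 beside -0.05 for all genes, with 18 above 0 and 32 below (47.1% of all genes were above 0). With scaling by library size alone, all genes shifted to a median of 0.38 and the members to 0.22, so the sign of a small change depends on the scaling, and the members' median was below that of all genes under both. Genes that were not tested because of low counts were Cbr2, Dcxr, Dhrs13os and Hsd17b3. Hsd17b3, the enzyme that makes testosterone from androstenedione, was at most 0.347 CPM in any library.

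**Figure D1:**
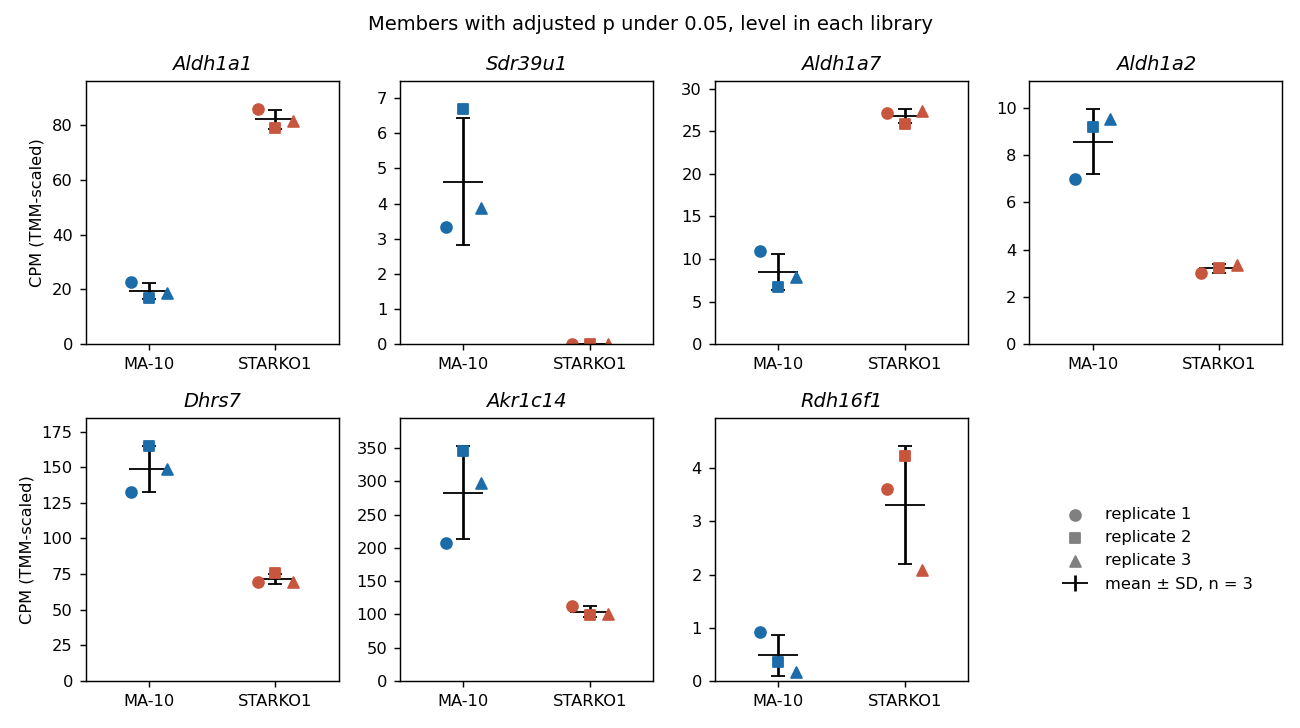
Level of the 7 called genes in each library, in CPM on a linear axis from 0, for MA-10 (blue) and STARKO1 (red); marker shapes give the replicate, and the black line and bars give mean ± SD (n = 3). In each of the 7 genes the libraries of the 2 cell lines do not overlap, and all 3 STARKO1 libraries are at 0 for Sdr39u1.

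Because the called Aldh1a genes moved in different directions, their upstream sequences are shown here to compare the neighbours Aldh1a1 and Aldh1a7, which rose, with Aldh1a2, which fell. Each window holds the 250 bases before a RefSeq start in build GRCm38.p6, read 5′ to 3′ on the strand of the gene. For Aldh1a1, which has 2 annotated starts, the downstream one is shown, at chr19:20601718-20601967 on the plus strand. The Aldh1a7 window lies at chr19:20727557-20727806 on the minus strand and that of Aldh1a2 at chr9:71215539-71215788 on the plus strand. Capitals mark the letters CCAAT, ATGCAAAT (the octamer motif), TATAAA and TGACNNNGC wherever they or their complement on the other strand were found. The window of the upstream Aldh1a1 start, at chr19:20492333-20492582 on the plus strand, held none of these letters and was not aligned.
Aldh1a1: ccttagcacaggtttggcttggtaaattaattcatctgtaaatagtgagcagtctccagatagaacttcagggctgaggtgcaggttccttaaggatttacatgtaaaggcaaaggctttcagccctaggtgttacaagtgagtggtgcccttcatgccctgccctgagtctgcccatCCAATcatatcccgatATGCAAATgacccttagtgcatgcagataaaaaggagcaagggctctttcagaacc
Aldh1a7: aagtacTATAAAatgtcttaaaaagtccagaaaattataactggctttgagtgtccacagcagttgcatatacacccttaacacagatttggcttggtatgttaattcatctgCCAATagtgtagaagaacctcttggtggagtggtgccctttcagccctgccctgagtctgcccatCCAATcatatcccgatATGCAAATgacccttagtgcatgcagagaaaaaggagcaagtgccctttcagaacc
Aldh1a2: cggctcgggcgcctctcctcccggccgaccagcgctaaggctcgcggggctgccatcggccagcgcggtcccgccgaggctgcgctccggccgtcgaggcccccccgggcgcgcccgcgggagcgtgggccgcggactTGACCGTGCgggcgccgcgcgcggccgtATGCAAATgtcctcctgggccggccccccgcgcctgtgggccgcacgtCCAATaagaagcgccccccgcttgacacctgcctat
Aligned at their starts without gaps, the Aldh1a1 and Aldh1a7 windows were identical at 94 of the last 100 bases, with an unbroken run of 65 identical bases from position -94 to -30, and at 129 of all 250 bases. Both hold CCAAT at the same place and ATGCAAAT from position -56 to -49. The Aldh1a2 window, which is rich in G and C (77.6%, against 46.4% and 43.2% in the other 2), also holds ATGCAAAT, from position -84 to -77. The octamer was added to the search after these sequences had been read, and it was found in 3 of the 52 members' windows, these 3, and in 1.6% of 32851 windows genome-wide. The letters searched from the outset were found at shares near those of all windows except for 2 of them. The CCAAT letters were in 48.1% of the members' windows and 33.8% of all windows, TATAAA in 3.85% and 12.4%, and the GC box GGGCGG in 36.5% and 32.7%, TGACNNNGC in 9.62% and 10.2%, the cAMP response element TGACGTCA in 1.92% and 1.55%, and the NR5A1 site CAAGGTCA in 1.92% and 1.33%. RefSeq gave windows for 45 of the 54 genes, and a match describes letters, not binding.

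Aldh1a1, a cytosolic retinaldehyde dehydrogenase, was at 22.6, 16.8 and 18.7 CPM in the MA-10 libraries and at 85.8, 78.8 and 81.6 CPM in the STARKO1 libraries. The STARKO1 level was 4.24 times that of MA-10 (19.4 ± 2.93 against 82.0 ± 3.53 CPM), with a log2 fold change of 2.08 (SE 0.172, adjusted p = 0.00228). It was the member with the lowest adjusted p, and it was called in each of the 6 fits that left out 1 library and in each of the 6 alternatives over all libraries. Aldh1a7, a rodent paralog of Aldh1a1, was at 10.9, 6.77 and 7.84 CPM in MA-10 and at 27.1, 25.9 and 27.4 CPM in STARKO1 (log2 fold change 1.65, SE 0.213, adjusted p = 0.00874). The lowest STARKO1 value of Aldh1a7 was more than 2 times the highest MA-10 value. Without MA-10 replicate 1 the changes were 2.30 for Aldh1a1 and 1.96 for Aldh1a7. Without MA-10 replicate 3 or any one of the STARKO1 replicates, Aldh1a7 was no longer called (adjusted p between 0.0593 and 0.0672). The 2 genes lie next to each other on chromosome 19 in GRCm38, Aldh1a1 at 20492715 to 20643465 on the plus strand and Aldh1a7 at 20692953 to 20727562 on the minus strand. The nearest genes of the table on either side, Anxa1 and Zfand5, were not called (log2 fold changes 0.12 and 0.51). Of the stretches of 50 bases in their spliced transcripts, 3.06% of those of Aldh1a1 and 7.49% of those of Aldh1a7 were found in the other gene. Aldh1a1 also overlaps 2 noncoding genes on the opposite strand, C730002L08Rik and Gm6684, and whether strand was used in counting is not given in the sources used here.

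Aldh1a2, the retinaldehyde dehydrogenase best known from the embryo, was lower in STARKO1 cells. Its level was 6.99, 9.19 and 9.51 CPM in MA-10 and 3.01, 3.24 and 3.37 CPM in STARKO1, with no overlap (log2 fold change -1.41, SE 0.208, adjusted p = 0.0142). Without MA-10 replicate 1 the change was -1.46. The call was lost without MA-10 replicate 3 (adjusted p = 0.0661) and without STARKO1 replicate 1, 2 or 3 (0.116, 0.0949 and 0.0945). Aldh1a3, the third retinaldehyde dehydrogenase, was at 0.687, 7.72 and 5.81 CPM in MA-10 and at 0.344, 0.589 and 0.337 CPM in STARKO1. Its MA-10 replicate 1 was close to the STARKO1 libraries and well under the other MA-10 libraries. The log2 fold change of -3.46 (SE 0.870) was not called with all libraries (adjusted p = 0.0545). It was -3.91 without MA-10 replicate 1 (adjusted p = 2.9e-05), in a fit that called 65.7% of all genes.

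Per kilobase of annotated exon, the 4 Aldh1a genes together were at 13.1, 12.4 and 13.0 CPM per kb in MA-10 and at 31.9, 30.0 and 31.4 CPM per kb in STARKO1. The sum varied little within each cell line, although single genes varied between the MA-10 libraries. Aldh1a1 made up 35.0%, 27.5% and 29.0% of the sum in MA-10 and 54.4%, 53.1% and 52.7% in STARKO1. Aldh1a2 made up 23.6%, 32.7% and 32.2% in MA-10, and no more than 4.77% in STARKO1. The share of Aldh1a7 was between 26.4% and 40.3% in MA-10 and between 41.2% and 42.3% in STARKO1. Aldh1a3 went from 1.14%, 13.5% and 9.66% to at most 0.425%. These shares rest on annotated lengths and describe RNA, and no test was made on them. The sum does not measure the oxidation of retinaldehyde, and whether Aldh1a7 takes part in it was not examined.

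**Figure D2:**
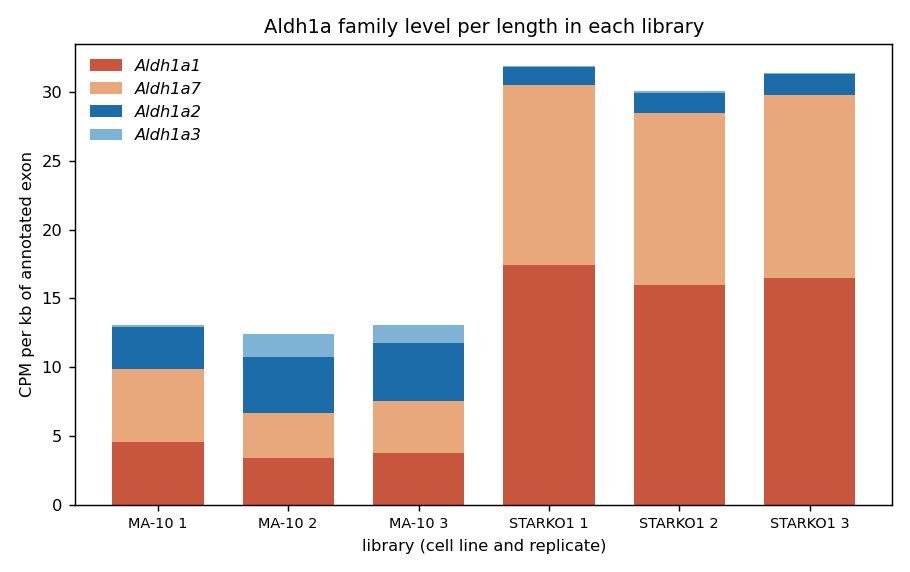
Stacked level per length of Aldh1a1, Aldh1a7, Aldh1a2 and Aldh1a3 in each of the 6 libraries, in CPM per kb of annotated exon, each bar being 1 library. The bars reach 12.4 to 13.1 in MA-10 and 30.0 to 31.9 in STARKO1, where Aldh1a1 and Aldh1a7 fill nearly the whole bar.

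The short-chain retinoid enzymes ranged widely in count. Rdh16f1, a member of the retinol dehydrogenase cluster on chromosome 10, was at 0.916, 0.347 and 0.176 CPM in MA-10 (16, 4 and 2 counts) and at 3.61, 4.24 and 2.08 CPM in STARKO1 (84, 72 and 37 counts). The log2 fold change was 2.67 (SE 0.564, adjusted p = 0.0372), and 3.71 without MA-10 replicate 1, but the call was lost without any other library (adjusted p between 0.0908 and 0.158). The identity of these reads is uncertain. All of the 50-base stretches of Rdh16f1 also occur in other genes, 87.9% of them in Rdh9, and its estimated counts were not whole numbers in any of the 6 libraries. Rdh1, which overlaps Rdh16f1 on the same strand and shares 15.6% of its stretches with other genes, lay on the other side of the threshold, at 2.81, 1.73 and 1.76 CPM in MA-10 and 6.07, 3.65 and 6.24 CPM in STARKO1 (log2 fold change 1.32, SE 0.326, adjusted p = 0.0517). Rdh10, the main retinol dehydrogenase of the embryo, was between 1.30 and 2.41 CPM in all libraries and was not called (log2 fold change -0.40, adjusted p = 0.326). Rdh11, a microsomal retinaldehyde reductase, was at 41.5 to 73.5 CPM in MA-10 and 52.0 to 59.5 CPM in STARKO1 (log2 fold change 0.05). Dhrs3, which reduces retinaldehyde to retinol, was at 10.7, 7.20 and 4.76 CPM in MA-10 and at 14.4, 16.6 and 14.2 CPM in STARKO1, with no overlap but without a call (log2 fold change 0.98, SE 0.297, adjusted p = 0.0732). Over the 13 retinoid enzymes, 3 were called higher and 1 lower, where 4.30% and 4.74% of all genes were. The 3 are Rdh16f1 and the neighbouring paralogs Aldh1a1 and Aldh1a7. The median log2 fold change was 0.05, or 0.40 when scaled by library size alone.

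In the other short-chain family, Sdr39u1 was at 3.32, 6.68 and 3.87 CPM in MA-10 (58, 77 and 44 counts) and had no count in any STARKO1 library. A count of 0 allows up to 3 counts, or at most 0.177 CPM at these depths, so Sdr39u1, whose protein resembles nucleotide sugar epimerases, was at least 26.1-fold lower in STARKO1 (adjusted p = 0.00800). The call was lost without MA-10 replicate 3 (adjusted p = 0.0617) and kept without each other library. The gene lies on chromosome 14 at 55897283 to 55900293 on the minus strand and shares no 50-base stretch with another gene. It overlaps Khnyn on the opposite strand, which was at 14.9 CPM in MA-10 and 12.9 CPM in STARKO1 and was not called (log2 fold change -0.21, adjusted p = 0.507). Cbr2, a mouse carbonyl reductase known from lung mitochondria, showed the same arrangement at a lower level, with 12, 9 and 9 counts in MA-10 and 0 in each STARKO1 library. Its counts were too low for the main test, and against the same floor it was at least 4.26-fold lower, although 12.1% of its stretches also occur in Gm11771. Without a filter on low counts Cbr2 had an adjusted p of 0.0197.

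Dhrs7, a membrane-bound short-chain dehydrogenase of the endoplasmic reticulum, was at 133, 165 and 149 CPM in MA-10 and at 69.6, 75.5 and 69.8 CPM in STARKO1 (log2 fold change -1.06, SE 0.158, adjusted p = 0.0146). The SD between the MA-10 libraries was 15.9 CPM around a mean of 149 CPM, and without MA-10 replicate 1 the change was -1.04. The adjusted p was 0.0649 without MA-10 replicate 3 and between 0.109 and 0.137 without one of the STARKO1 libraries. Wwox, a tumor suppressor with a short-chain dehydrogenase domain, was at 13.2, 37.6 and 26.1 CPM in MA-10 and between 10.9 and 12.7 CPM in STARKO1, and was not called (log2 fold change -1.09, adjusted p = 0.0856). Dhrs13 was at 7.04, 9.37 and 3.96 CPM in MA-10 and between 13.1 and 14.6 CPM in STARKO1 and missed the threshold (log2 fold change 1.03, adjusted p = 0.0688). Its antisense neighbour Dhrs13os was under 1 CPM in every library. The carbonyl reductases Cbr1, Cbr3 and Cbr4 had log2 fold changes between -0.22 and -0.19, or between 0.12 and 0.29 when scaled by library size alone, none of them called. Of the 10 tested genes of this family, 2 were called lower and 0 higher, where 4.74% and 4.30% of all genes were. Their median was -0.21, or 0.24 when scaled by library size alone.

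Of the aldo-keto reductases, Akr1c14 was called, and 8 of the 10 had a log2 fold change below 0. Akr1c14, a 3-alpha-hydroxysteroid dehydrogenase that reduces dihydrotestosterone and dihydroprogesterone, was at 207, 345 and 297 CPM in MA-10 and at 113, 98.3 and 101 CPM in STARKO1 (log2 fold change -1.44, SE 0.232, adjusted p = 0.0180). All 3 MA-10 libraries were well above all 3 STARKO1 libraries, and the change was -1.53 without MA-10 replicate 1. The adjusted p was 0.0828 without MA-10 replicate 3 and between 0.116 and 0.130 without one of the STARKO1 libraries. A pseudogene within it, Gm18857, shares 5.8% of its stretches. Akr1e1, a reductase of anhydrofructose, had the larger log2 fold change of -1.99 (SE 0.508) but was not called (adjusted p = 0.0558), since its MA-10 values of 34.7, 163 and 98.7 CPM were far apart. Its STARKO1 values were 26.1, 24.9 and 23.3 CPM. Akr1b7, which clears the isocaproaldehyde released when the side chain of cholesterol is cut, was at 24.0, 67.8 and 41.6 CPM in MA-10 and between 25.9 and 27.1 CPM in STARKO1, so that the cell lines overlapped (log2 fold change -0.75, adjusted p = 0.166). In the same cluster on chromosome 6, Akr1b3 (aldose reductase) pointed the other way, with 152, 76.9 and 100 CPM in MA-10 and 202, 175 and 204 CPM in STARKO1 (log2 fold change 0.82, adjusted p = 0.0843). Akr1b8 and Akr1b10, which lie between Akr1b3 and Akr1b7, had log2 fold changes of -0.65 and -0.20 and were not called. Akr1b3 shares 9.48% of its stretches with other genes, and its counts were not whole numbers in 5 libraries. In all, 1 of 10 aldo-keto reductases was called lower and 0 higher, where 4.74% and 4.30% of all genes were. Their median was -0.57, or -0.03 when scaled by library size alone.

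No member of the 17-beta-hydroxysteroid dehydrogenase family and none of the other aldehyde dehydrogenases was called in the main edgeR fit, out of 5 and 12 tested. Without MA-10 replicate 1, edgeR called 1 higher and 3 lower in the first family and 5 higher and 3 lower in the second. That fit called 34.0% of all genes higher and 31.7% lower. The unadjusted p was under 0.05 in 22 of the 50 tested members (44.0%, against 37.6% of all genes), and DESeq2 called 19 of the 50, where it called 28.5% of all genes. Hsd17b10, a mitochondrial enzyme of isoleucine breakdown and tRNA processing, was at 127, 328 and 278 CPM in MA-10 and at 117, 112 and 105 CPM in STARKO1 (log2 fold change -1.13, SE 0.344, adjusted p = 0.0735). Here too MA-10 replicate 1 was near the STARKO1 libraries and the other MA-10 libraries were far above. Aldh2, the mitochondrial enzyme that oxidizes acetaldehyde, was at 403, 650 and 538 CPM in MA-10 and between 336 and 352 CPM in STARKO1 (log2 fold change -0.63, adjusted p = 0.0988). The 5 members with the highest level per length were the same genes in both cell lines. In MA-10 they were Hsd17b10 (188 CPM per kb), Akr1b8 (175), Akr1cl (138), Hsd17b12 (120) and Aldh2 (103), and in STARKO1 Akr1cl (113 CPM per kb), Akr1b8 (112), Hsd17b12 (102), Hsd17b10 (85.8) and Aldh2 (66.8). Akr1a1 came next in both cell lines, at 93.6 CPM per kb in MA-10 and 66.6 in STARKO1, where it nearly tied with Aldh2. Akr1b8 and Hsd17b12, the latter a reductase of fatty acid elongation, ranged so widely in MA-10 (101 to 427 and 160 to 398 CPM) that their STARKO1 values (157 to 174 and 241 to 247 CPM) lay between the MA-10 libraries, and so did those of Akr1cl at 425 to 502 CPM within 422 to 742. The log2 fold changes of these 3 genes were -0.65, -0.24 and -0.29, and the last 2 were positive, at 0.32 and 0.23, when libraries were scaled by size alone.

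**Figure D3:**
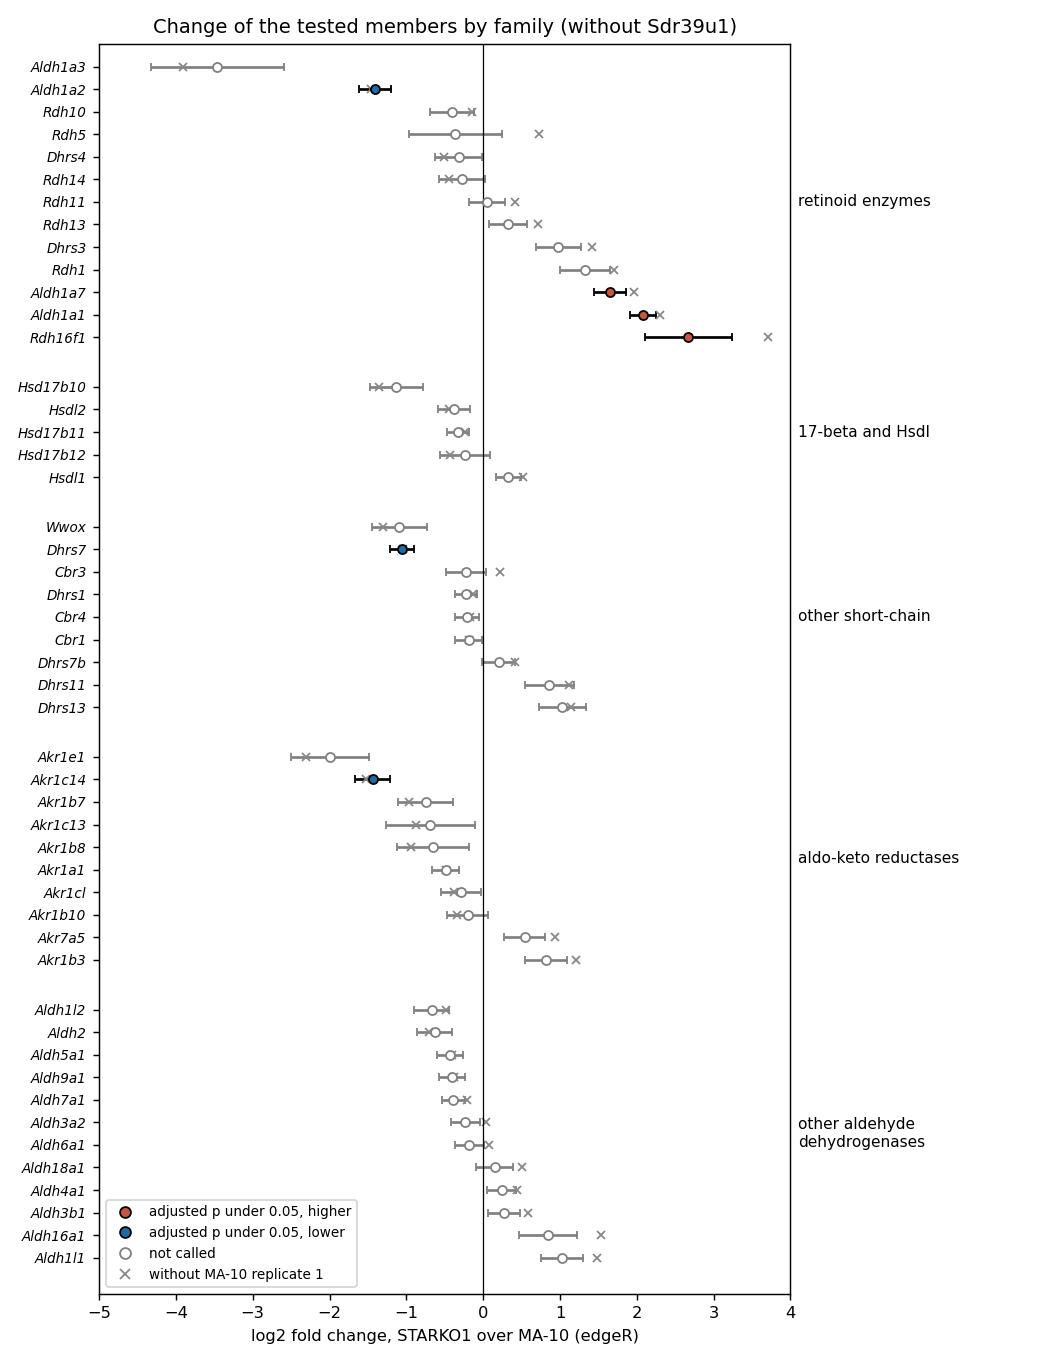
Log2 fold change of STARKO1 over MA-10 with its SE for 49 of the 50 tested members, by family, with Sdr39u1 left out because its STARKO1 counts are all 0; filled circles were called, open circles were not, and crosses give the fold change without MA-10 replicate 1. Among the genes drawn, the retinoid enzymes span the widest range, from -3.46 for Aldh1a3 (not called) to 2.67 for Rdh16f1. No gene of the 17-beta or of the other aldehyde dehydrogenase group is filled.

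The 2 formyltetrahydrofolate dehydrogenases, which oxidize the formyl group of folate to carbon dioxide, lay on opposite sides. Aldh1l1, the cytosolic form, was at 20.9, 12.4 and 10.7 CPM in MA-10 and at 29.8, 32.4 and 28.3 CPM in STARKO1, and it missed the threshold (log2 fold change 1.03, SE 0.271, adjusted p = 0.0591). Aldh1l2, the mitochondrial form, was at 224, 142 and 227 CPM in MA-10 and at 132, 123 and 117 CPM in STARKO1 (log2 fold change -0.67, SE 0.224, adjusted p = 0.0848). In neither gene did the libraries of the cell lines overlap, which held for 42.5% of all genes, and neither was called. The ratio of Aldh1l2 to Aldh1l1 in level per length was 6.44, 6.88 and 12.8 in MA-10 and 2.66, 2.28 and 2.49 in STARKO1. Its lack of overlap follows from the opposite directions of the 2 genes and adds no evidence. Both enzymes of the proline pathway among the members were without a call over all libraries. Aldh18a1, which starts proline synthesis from glutamate, had a log2 fold change of 0.15, and Aldh4a1, which ends proline breakdown, 0.24. Without MA-10 replicate 1 both were called (0.51 and 0.44, adjusted p = 0.0106 and 0.0361), as were 65.7% of all genes. Of the 50-base stretches of Aldh4a1, 30.0% also occur in Gm21969, which overlaps it on the same strand, and its counts were not whole numbers in 3 libraries.

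The other genes of these pathways were counted from lists of partners, beside 4.30% of all genes called higher and 4.74% lower. Of 28 retinoid partners (binding proteins, alcohol dehydrogenases, receptors, retinoic acid hydroxylases), 13 were in the table and 12 were tested, with 0 higher and 1 lower. This was Bco2, a carotenoid-cleaving oxygenase, near the floor at 1.22 ± 0.0975 CPM in MA-10 and 0.226 ± 0.166 CPM in STARKO1 (adjusted p = 0.0447). Adh7, an alcohol dehydrogenase that oxidizes retinol, was at 902, 1850 and 1560 CPM in MA-10 and at 684, 666 and 638 CPM in STARKO1 (log2 fold change -1.12, adjusted p = 0.0623). Cyp26b1, which breaks down retinoic acid, was at 26.2, 5.98 and 7.75 CPM in MA-10 and at 24.9, 32.9 and 27.8 CPM in STARKO1 and was not called (log2 fold change 1.09, adjusted p = 0.181). Its MA-10 replicate 1 lay within the range of STARKO1, and without that library the log2 fold change was 2.14 (adjusted p = 4.97e-05). The receptors Rara, Rarg, Rxra and Rxrb were not called with all libraries. Without MA-10 replicate 1 all of them but Rxra were (adjusted p between 0.003 and 0.00541). That fit, also used for Cyp26b1 above, called 65.7% of all genes. The median log2 fold change of the tested retinoid partners was -0.06.

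Of 24 folate partners, 20 were tested and 1 was called, higher. Gart, which carries 3 steps of purine synthesis and uses formylated folate, was at 141, 67.4 and 64.4 CPM in MA-10 and at 261, 278 and 300 CPM in STARKO1 (log2 fold change 1.62, SE 0.334, adjusted p = 0.0355). Mthfd2, a mitochondrial folate dehydrogenase, was at 200, 655 and 554 CPM in MA-10 and between 162 and 174 CPM in STARKO1 (log2 fold change -1.50, adjusted p = 0.0644). Of 16 proline, ornithine and glutamate partners, 10 were tested, 3 were called lower and 0 higher, while the median of the 10 was 0.21. Pycr1, the mitochondrial reductase that completes proline, fell from 18.0 ± 5.44 CPM in MA-10 to 2.33 ± 0.311 CPM in STARKO1 (log2 fold change -2.94, SE 0.280, adjusted p = 0.00371) and was called without each library in turn. P4ha1, a catalytic subunit of collagen prolyl hydroxylase, was at 573 ± 236 CPM in MA-10 and 174 ± 18.9 CPM in STARKO1 (adjusted p = 0.0329). Oat, which links ornithine to the proline pathway, was at 86.2 ± 13.6 CPM and 44.9 ± 2.54 CPM (adjusted p = 0.0262). These 2 calls, those of Gart and of Bco2 were lost without MA-10 replicate 3 or any one of the STARKO1 libraries, and those of Gart, Bco2 and P4ha1 also without MA-10 replicate 2.

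The position of MA-10 replicate 1 differed from gene to gene. It was nearer to the STARKO1 mean than to the mean of the other MA-10 libraries in 30 of the 50 tested members (60.0%), against 69.8% of all genes tested. In 17 of the 50 the STARKO1 mean lay above MA-10 replicate 1 and below the mean of the other MA-10 libraries, or the reverse, and none of these 17 was called. The 7 called genes had the same sign against both. Aldh1a1 differed from MA-10 replicate 1 by 1.86 and from replicates 2 and 3 by 2.20 on the log2 scale, and Dhrs7 by -0.90 and -1.13. Akr1e1 differed by -0.49 and -2.35, and Akr1b8 by 0.73 and -0.99. Without MA-10 replicate 1, 36 of 51 tested members were called (70.6%, against 65.7% of all genes). They were 17 higher (34.0% of all genes) and 19 lower (31.7%), and these 36 included the 7 genes called with all libraries. Among the others were Akr1e1 (-2.30), Hsd17b10 (-1.35), Akr1b7 (-0.96), Dhrs3 (1.42) and Aldh1l1 (1.48), while Aldh1l2 (-0.49) was not called.

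**Figure D4:**
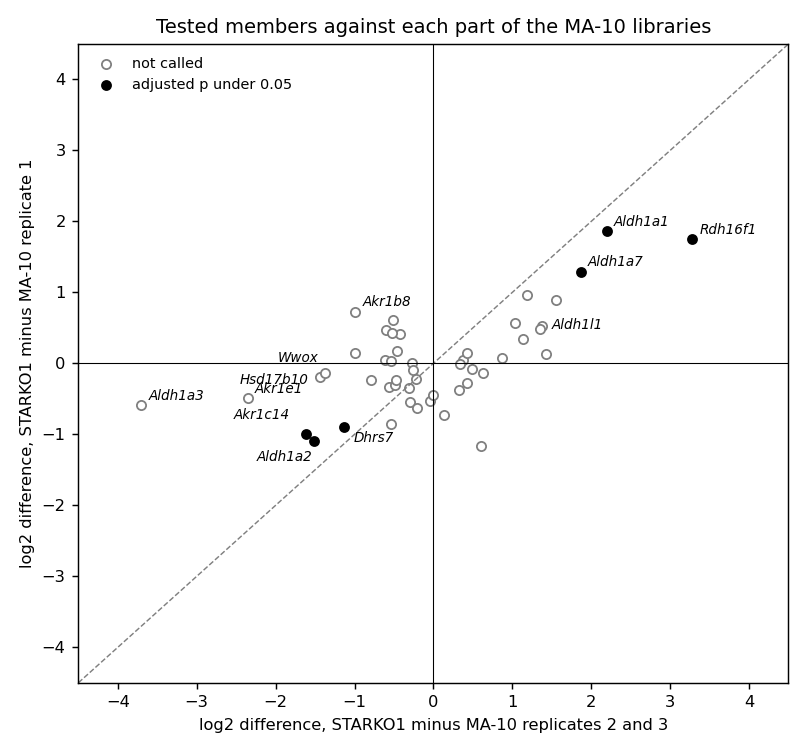
Log2 difference of the STARKO1 mean from MA-10 replicate 1 (vertical axis) and from the mean of MA-10 replicates 2 and 3 (horizontal axis), with 1 point for each of 49 tested members (Sdr39u1 is left out) and equal values on the dashed line. Of the called genes drawn, Dhrs7, Aldh1a1 and Aldh1a2 lie nearest to that line. Aldh1a3 and Akr1e1 lie far from it because MA-10 replicate 1 was close to STARKO1.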

How the data were processed

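The values deposited by the authors are estimated counts of reads per gene as they stood before any scaling, 1 column for each of the 6 libraries and without normalization. The submitters' processing notes name STAR 2.6.1d, Partek and mm10, without the role of each. Of the 14774 genes, 3197 had a value more than 0.1 from a whole number in at least 1 library, and every gene had at least 10 counts in total. All columns were matched to a library by name.

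Counts were rounded and compared in R 4.3.3 with edgeR 4.0.16 (filterByExpr, TMM, glmQLFit and glmQLFTest, Benjamini-Hochberg adjustment), as MA-10 against STARKO1 over all libraries and without a covariate. The common biological coefficient of variation was 0.291, so the spread between libraries, not the depth, limits the precision for most genes. Of the members, 9 had values that were not whole; how these fractions arose was not tested.

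The members, gene lists and tests were chosen with earlier results of these data known. Named members are those called, those with a log2 fold change of 1 or more in size and no overlap, those at or under 3 counts in one cell line only, the 5 highest per length in each cell line, those nearest the threshold and near-identical paralogs of these; Rdh10, Rdh11, Dhrs3, Akr1b3, Akr1b7, Aldh1l2, Aldh18a1, Aldh4a1, Hsd17b3, the Cbr genes, and the uncalled partner genes other than Adh7 and Mthfd2, were named for their roles after their values were seen. Positions and exon lengths are from GENCODE M21 (GRCm38). Alternatives were DESeq2 1.42.0, upper quartile scaling, library size scaling, no filter, a minimum of 10 counts in every library, the replicate number as a block, and leaving out each library. In simulated counts of 11801 tested genes for this comparison, edgeR called 77.9% of the genes with a true 4-fold change and 8.08% of those with a 2-fold change, and 5.75% of its calls were false. The values for DESeq2 were 95.8%, 41.4% and 27.5%. The simulation gave both cell lines the same dispersion for each gene and no library that stood apart, so the rates in the real data may differ.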

Additional observations from a re-analysis of the deposited data

How the results depend on the processing

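Aldh1a1 was called under every setting run, and Sdr39u1 in all but the fit without MA-10 replicate 3 and the filter that asks for 10 counts everywhere, which removes it. The members called numbered 7 (3 higher, 4 lower) in the main result, 19 (8 and 11) with DESeq2, which also called all 7, 3 (1 and 2) with library size scaling (Akr1c14, Aldh1a1 and Sdr39u1), and between 1 and 36 without 1 library (1 to 17 higher, 0 to 19 lower). The highest of these came without MA-10 replicate 1 and the lowest without MA-10 replicate 3. All genes called numbered 1079 (513 higher, 566 lower), 3395 (1312 and 2083) with DESeq2, 695 with 10 counts asked of every library (348 lower), 330 (210 and 120) with library size scaling, 368 lower with upper quartile scaling, and between 89 and 7990 without 1 library (47 to 4133 higher, 39 to 3857 lower).

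The fit with the replicate number as a block called 234 genes (106 higher, 128 lower) and 3 members, Aldh1a1, Aldh1a7 and Sdr39u1 (1 lower). Deviations of same-numbered libraries from their group means correlated at -0.0165, 0.0455 and 0.0201, so nothing shows that the numbers pair the libraries. Under the block, 0 retinoid, 0 folate and 1 proline partner (lower) were called.

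The retinoid partners called, 1 lower, became 2 lower with DESeq2 and 0 with library size scaling, upper quartile scaling, no filter or at least 10 counts, and 0 to 9 without 1 library (0 to 5 higher, 0 to 4 lower). The folate partners called, 1 higher, became 6 (3 higher, 3 lower) with DESeq2, 0 with library size scaling, and 0 to 15 without 1 library (0 to 9 higher, 0 to 6 lower). The proline partners called, 3 lower, became 1 to 8 without 1 library (0 to 5 higher, 1 to 3 lower).

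Among single named members, the sign turned for Akr1cl (0.23), Hsd17b12 (0.32), Cbr1 (0.29), Cbr3 (0.12) and Cbr4 (0.25) with library size scaling, for Cbr3 without MA-10 replicate 1 (0.22), for Rdh11 (down to -0.12) and Aldh18a1 (down to -0.02) without 1 library, and for Hsd17b12 (0.06) without MA-10 replicate 2 (-0.43 to 0.06 over the libraries left out); none of these was called in the main result. The cause of these changes was not tested. In the simulated counts, with 3 libraries a group, edgeR missed most 2-fold changes. The simulation held no MA-10 library that stood apart, so its rates need not hold for the real libraries. A member that was not called is not shown to be unchanged. Counts behind Rdh16f1, Aldh1a3, Cbr2 and Bco2 were low.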
